A study of Bos taurus with 16 samples.

Results

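The genes described here encode the cytosolic proteins of the large (60S) ribosomal subunit, measured in cow blood. They were found by gene symbol: every probe named RPL followed by a number, or RPLP0, RPLP1 or RPLP2, was taken, and mitochondrial ribosomal proteins were left out. The choice used no measured value. It gave 51 of the 16966 gene symbols on the array, read by 192 of 43653 probes that are not controls, with 1 to 8 probes per gene and 6 genes read by 1 probe. All 51 symbols were found in the RefSeq gene table of the cow assembly ARS-UCD2.0.

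Blood came from Holstein cows in a trial of an oral probiotic pack, with 10 cows enrolled, 5 in each arm. The 4 groups were probiotic blood of day 60 to which 100 ng/ml of lipopolysaccharide (LPS, a component of bacterial cell walls) was added, probiotic blood of day 60 without LPS, blood of day 60 from cows that took water (untreated), and blood of day 0. The pack held a yeast culture, Enterococcus faecium, Lactobacillus acidophilus, Bacillus subtilis and Aspergillus products, and all blood was held for 30 min at 37 °C in 5% CO2 before RNA extraction. Each group was 1 RNA pool hybridised to 4 single-colour Agilent arrays on a slide of its own, 16 arrays in all. Per the labels the day 0 pool held cows of the probiotic arm, and whether it also held the other arm is not given in the sources used here. The p-values thus rest on how far repeat arrays of 1 pool differed, not on differences among cows, and slide and group cannot be told apart in any comparison. The probiotic and LPS arrays shared a scan day. Elsewhere each group also had its own scan day, so the effects of day and group cannot be told apart. In whole blood, fewer cells of a type and less RNA per cell cannot be told apart.

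The large subunit joins amino acids into protein at a catalytic centre made of RNA, and its proteins hold that RNA in shape, line the tunnel through which the new chain leaves, and form the stalk that recruits translation factors. Their mRNAs carry an oligopyrimidine tract at the 5′ end, through which cells raise or lower their translation together, and they are among the most abundant messages of resting lymphocytes. RPL5 and RPL11 outside the ribosome bind MDM2, which links faults in subunit assembly to p53.

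Several genes were read by probes that overlap each other almost base for base, and these are shown because their differences between groups could be compared within nearly the same sequence. For the next 3 genes capitals mark the run that both probes share. The RPL8 probes A_73_P362981 and A_73_P045156 share 55 of 60 bases, and the first 50 bases of each are printed. RPL8 is a protein near the catalytic centre.
RPL8 A_73_P362981: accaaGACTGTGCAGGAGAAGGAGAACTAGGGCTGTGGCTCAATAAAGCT
RPL8 A_73_P045156: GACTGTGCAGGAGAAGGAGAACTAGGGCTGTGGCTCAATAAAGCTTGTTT
The RPLP1 probes share 45 bases, and the first 50 bases of each are printed. RPLP1 is an acidic protein of the stalk.
RPLP1 A_73_P462036: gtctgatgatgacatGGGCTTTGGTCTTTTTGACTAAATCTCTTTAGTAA
RPLP1 A_73_P033516: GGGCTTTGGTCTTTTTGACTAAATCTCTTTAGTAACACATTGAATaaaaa
The RPL13 probes share 39 bases and are printed whole.
RPL13 A_73_P305537: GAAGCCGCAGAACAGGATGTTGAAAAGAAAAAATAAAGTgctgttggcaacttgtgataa
RPL13 A_73_P369166: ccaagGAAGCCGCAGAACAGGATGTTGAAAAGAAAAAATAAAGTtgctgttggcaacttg
The last pair, of RPL37, is shown because its probes read opposite strands: the 21 bases in capitals of each are the reverse complement of the other's, and the second probe carries the only call for a lower level in probiotic than in day 0 blood among the probes of the outer rows, described next.
RPL37 A_73_P357611: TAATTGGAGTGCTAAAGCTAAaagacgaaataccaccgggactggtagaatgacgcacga
RPL37 A_73_P393421: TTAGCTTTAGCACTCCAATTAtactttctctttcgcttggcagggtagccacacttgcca

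The arrays were uneven across their surface, which bears on every value below. An Agilent spike-in probe is printed at 32 places on each array, so its spots within an array read the same sample. Whether the spike-in RNA was added equally to every sample was not checked. In the outer rows (1 to 45 and 488 to 532 of 532) its background-subtracted signal lay between 185208 and 257929 on LPS arrays 1 to 3. It lay between 69482 and 184648 on the probiotic arrays and between 49000 and 99451 on day 0 arrays 1 to 3. LPS array 4 and day 0 array 4 were dimmer there, with 4724 to 35271 and 2388 to 42150. On the untreated arrays the same spots lay between -26.5 and 3489, with a median of 17.2. In the inner rows the spike-in signal fell below 100 on 26 of 96 spots of the LPS arrays, 53 of the probiotic arrays, 86 of the untreated arrays and 43 of the day 0 arrays. Low signal lay partly in the same inner rows on several slides and partly in rows that differed between slides. The runs of rows named next were set by where called probes lay, as described below. In rows 236 to 315 the spike-in reached 40840 to 73743 on probiotic arrays 1 to 3, against -2.1 to 257.8 on the day 0 arrays. In rows 120 to 207 its median was 100 on the LPS arrays, 5.0 on the probiotic arrays and 85.6 on the day 0 arrays. There it reached 56926 on the LPS arrays, lay between -2.0 and 108.8 on the probiotic arrays and reached 33112 on the day 0 arrays. Each result is therefore given for the whole array and then for the outer rows, a choice made after seeing the data. The outer rows hold 31 probes for 25 of the genes.

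**Figure D1:**
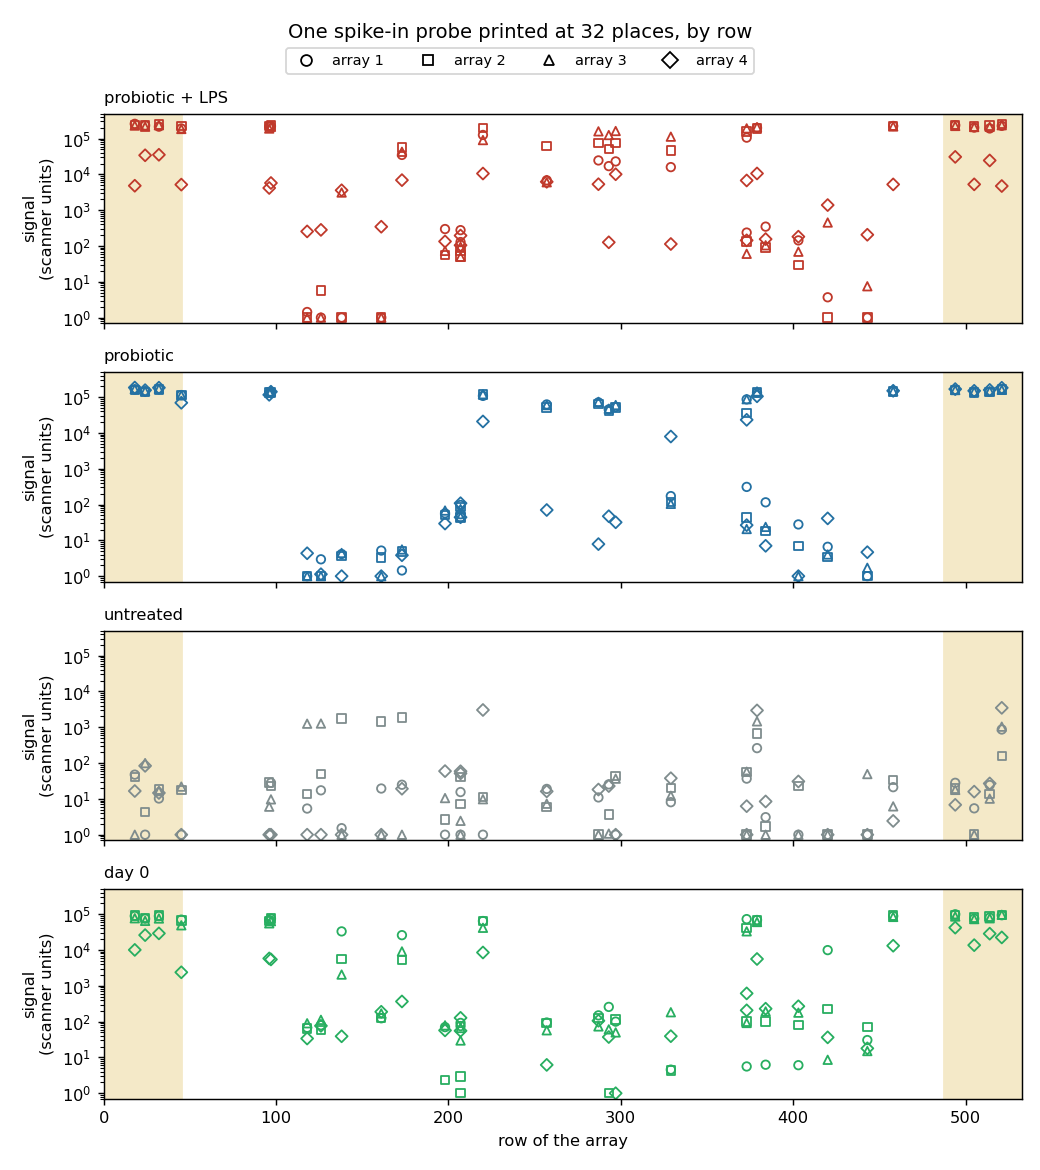
Background-subtracted signal (scanner units, log axis, values under 1 drawn at 1) of a spike-in probe at its 32 places, by row of the array, for the 4 arrays of each group; shaded rows are the outer rows. Signals in the shaded rows lay between 69482 and 184648 on the probiotic arrays and between -26.5 and 3489 on the untreated arrays, and in the inner rows 26 to 86 of 96 spots per group fell below 100.

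Transcripts of most large-subunit genes were detected. A probe counts as detected where the scanner software marked it well above background. On all 4 arrays of a group, 103 of the 192 probes were detected in LPS blood, 88 in probiotic blood, 46 in untreated blood and 84 in day 0 blood. By gene these were 43, 40, 28 and 37 of 51. On all 16 arrays 26 probes were detected, and 18 were detected on none. For comparison, of 40 marker genes of blood cells on the array 24, 26, 12 and 18 were detected on all 4 arrays of the LPS, probiotic, untreated and day 0 groups, in that order. The 122 probes (46 genes) detected on all 4 arrays of at least 1 group were tested. Probes that passed through the group where they were brightest had to differ from the rest, so counts among them are descriptions. The 5 genes with no such probe were RPL22, RPL26 and the paralogs RPL10L, RPL26L1 and RPL7L1. The probes of RPL10L and RPL26L1 were not well above background on any array, and the single RPL26 probe was detected on 2 LPS arrays, no probiotic or untreated array and 3 day 0 arrays. RPL39L was not on the probe list.

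Values below are log2 of the background-subtracted signal over the array's 75th percentile, with -3 as the lowest value given. Probes were tested with limma over the 16 arrays, p-values were adjusted over all 12214 probes tested by Benjamini-Hochberg, and a probe was called where its adjusted p was under 0.05 and its groups differed at least 2-fold.

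In the comparison of probiotic with untreated blood, which asks what the pack changed against water at the same day, most large-subunit probes were higher in probiotic blood. Of 122 probes, 82 were called higher, against 54.1% of all probes tested, and 18 were called lower, against 14.5%. The median difference was 4.62 (log2) over these probes and 2.46 over all probes. The authors' deposited averages gave 15 higher and 23 lower past a 2-fold difference, with no test and no share of all probes given.
Marker genes of blood cells moved the same way. Summed over its probes as a multiple of the array's 75th percentile, the list of 6 T cell genes lay between 165 and 403 on the probiotic arrays, against 13.6 to 30.5 on the untreated arrays. The 8 neutrophil genes lay between 638 and 1220 on the probiotic arrays, against 32.1 to 112.2 on the untreated arrays. In 6 of 8 blood lists every probiotic sum was above every untreated one; B cell genes and PTPRC, the pan-leukocyte marker, overlapped. The 6 genes of other tissues went the opposite way, with 3.64 to 7.47 on the probiotic arrays and 16.1 to 26.5 on the untreated arrays. Of the 40 blood markers, 7 were above background on no probiotic array and 13 on no untreated array. The part of these shifts in the result was not tested.
In the ribosomal proteins the calls were spread over most genes. Of the 46 genes, 39 had a probe called higher and 15 a probe called lower, and 11 had both: RPL10, RPL12, RPL13, RPL18, RPL31, RPL35A, RPL4, RPL7, RPL8, RPLP0 and RPLP1. RPL11, RPL35 and RPL3L had no call, and RPL11 missed the threshold narrowly (adjusted p = 0.0501 by limma).

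The calls for a lower level all lay in the inner rows. None of the 18 probes called lower lay in the outer rows. Of the 18, 7 lay in rows 120 to 207 and the other 11 in rows 336 to 407. Among them, RPL5 A_73_P439356 and RPL7A A_73_100141, the only tested RPL7A probe, were not well above background in either group. Their calls are thus no measured decrease. Both runs of rows were set from these 18 probes themselves, split at the widest gap between them. That all 18 lie in them is therefore fixed by how the runs were drawn. In rows 120 to 207, 28.9% of all probes tested were called lower and 36.5% higher, and 5 of the 14 members tested there were called higher. In rows 336 to 407, 41.8% of all probes tested were called lower and 13% higher. In rows 1 to 45, 2.88% of all probes were called lower and 76.8% higher.

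**Figure D2:**
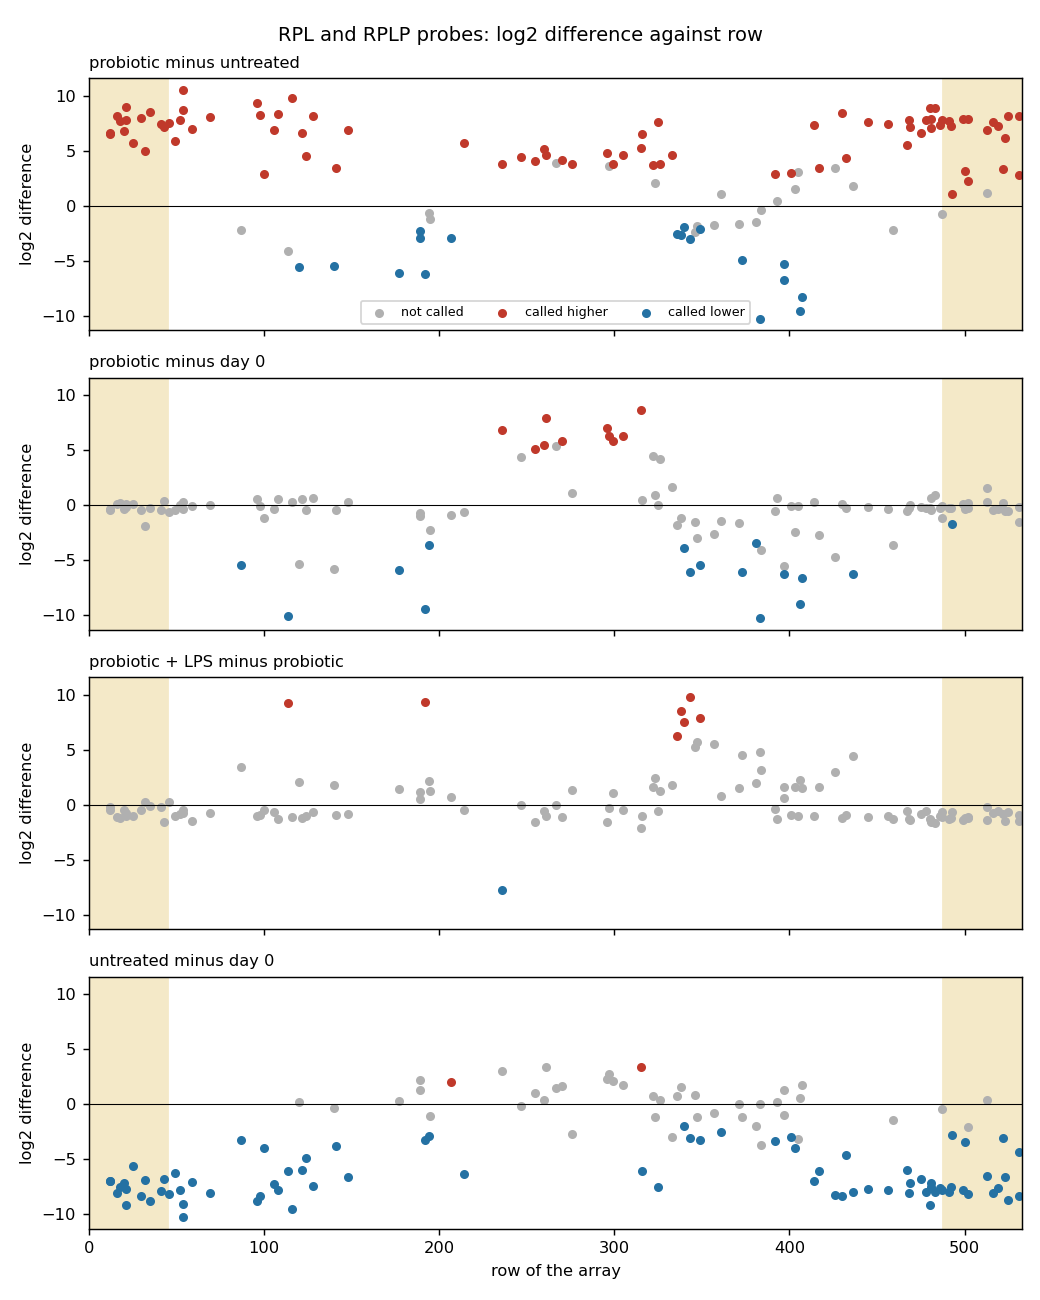
Log2 difference of each of the 122 tested RPL and RPLP probes against its row on the array in 4 comparisons; red points were called higher, blue points lower and grey points were not called, and shaded rows are the outer rows. The 18 probes called lower in probiotic than in untreated blood lie in rows 120 to 407, and the 10 called higher in probiotic than in day 0 blood lie in rows 236 to 315.

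The stalk proteins had probes called in both directions. RPLP0, which anchors the stalk to the ribosomal RNA, had 5 tested probes. Its probe A_73_P103156 in row 502 averaged 10 ± 0.60 in probiotic blood and 2.08 ± 0.88 in untreated blood (SD, n = 4 each), a difference of 7.92 ± 0.85 (SE, adjusted p = 1.1e-06 by limma). Its probe A_73_112949 in row 140 lay at -3 on all 4 probiotic arrays, against 1.85, 2.92, 8.20 and -3 in untreated blood. That probe was called lower (-5.49 ± 1.78, adjusted p = 0.012 by limma), at least 14.3-fold as it was not well above background on any probiotic array. Another probe, A_73_P033291 in row 128 and so in the same band, went the other way, with 9.30, 9.47, 9.67 and 10 on the probiotic arrays against 0.96, 1.99, 5.98 and -3 on the untreated arrays (8.12 ± 1.54, adjusted p = 3.0e-04 by limma). Here and below, such a bound divides the brighter group's mean by the mean of a ceiling for the dim group. The ceiling on an array is the lowest signal of any probe well above background there, or the dim probe's own signal where that was higher.

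RPLP1 probe A_73_P462036 in row 325 read 10.27, 10.97, 10.91 and 10.87 on the probiotic arrays, against 3.33, 3.65, 3.79 and 1.80 on the untreated arrays. The groups did not overlap, and the probe was called higher (7.62 ± 0.78, adjusted p = 6.8e-07 by limma). Its partner A_73_P033516 in row 192, printed above with 45 shared bases, read -3, -3, -3 and -2.38 on the probiotic arrays. On the untreated arrays it read 3.58, 6.25, 2.48 and 1.03. These groups did not overlap either, and the probe was called lower by at least 25.8-fold (adjusted p = 1.1e-04 by limma).
RPLP2, the other acidic stalk protein, had 4 tested probes in rows 195 to 406, of which 2 were called lower. Its probe A_73_111645 in row 383 differed by -10.27 ± 1.44, at least 433-fold lower (adjusted p = 1.8e-05 by limma), while A_73_P056536 in row 384, which shares 59 bases with it, differed by -0.39 ± 2.36 and was not called. The base of the stalk is also bound by RPL12, of which 4 probes were called higher and 1 lower.

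RPL8 and RPL13 behaved in the same way. RPL8 probe A_73_P362981 in row 315 read 8.43, 8.42 and 8.47 on 3 probiotic arrays, with the spot of array 4 left out as an outlier by the scanner software, against 2.53, 3.61, 3.11 and 3.45 on the untreated arrays. It was called higher (5.27 ± 1.33, adjusted p = 0.0030 by limma). The overlapping probe A_73_P045156 in row 397 read -2.82, -3, -3 and -2.76 on the probiotic arrays, against 4.52, 7.10, 1.01 and -3 on the untreated arrays. It was called lower by at least 13.5-fold (adjusted p = 0.0050 by limma), although the untreated value at -3 lay among the probiotic ones.
RPL13 probe A_73_P305537 in row 46 read 8.15, 8.43, 8.26 and 6.98 on the probiotic arrays and 1.19, 2.06, 1.31 and -3 on the untreated arrays, a difference of 7.56 ± 1.17 (adjusted p = 4.5e-05 by limma). Its partner A_73_P369166 in row 177 lay between -3 and -2.86 on the probiotic arrays and between 1.1 and 7.60 on the untreated arrays, at least 22.5-fold lower (adjusted p = 7.6e-04 by limma).
In all, 30 pairs of tested probes in 16 genes shared at least 25 bases. Of these pairs 6 were called in opposite directions, 15 in the same direction, 8 had 1 probe called and 1 had neither.

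**Figure D3:**
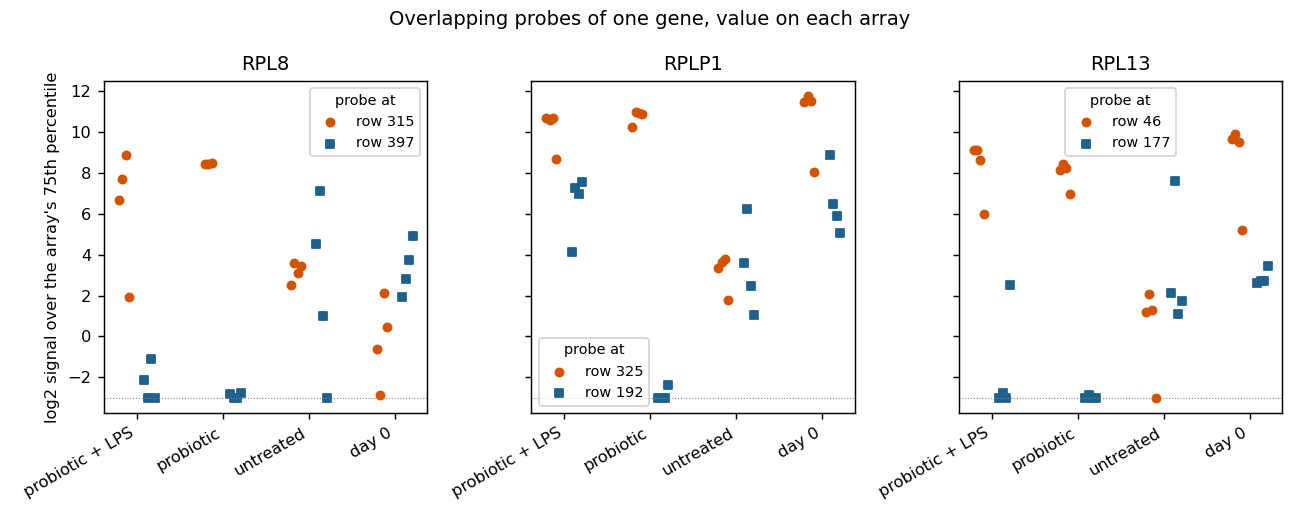
Log2 signal over the array's 75th percentile on each array for 2 overlapping probes each of RPL8, RPLP1 and RPL13, by group, with the row of each probe in the legend; the dotted line is the lowest value given, -3. In each gene one probe is higher and the other lower in probiotic than in untreated blood; levels are to be compared within a probe, not between probes.

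Other genes with large differences between probiotic and untreated blood were RPL30, RPL9, RPL10, RPL31, RPL14, RPL38 and RPL4. RPL30 probe A_73_P075201 lay at 7.38 to 7.68 on the probiotic arrays and at -3 on all untreated arrays, at least 102-fold higher (adjusted p = 3.0e-06 by limma). RPL9 was at least 221-fold higher (adjusted p = 6.7e-06 by limma). RPL10, which joins the subunit late in its assembly and lies near the catalytic centre, was at least 424-fold higher on probe A_73_P511073 (adjusted p = 3.3e-09 by limma). RPL31, at the exit of the tunnel, differed by 8.88 ± 1.29. RPL38, which in mice is needed for the translation of a subset of Hox mRNAs, differed by 8.17 ± 0.58, and RPL4, which lines the tunnel, by 8.12 ± 0.83.
RPL14, on its single tested probe in row 407, was at least 123-fold lower (adjusted p = 5.6e-06 by limma). RPL13A, which in human myeloid cells leaves the ribosome to silence inflammatory mRNAs, was called higher on both probes, by 2.87 ± 0.66 and by at least 181-fold. RPL19 was called higher by 5.15 ± 1.38 (adjusted p = 0.0040 by limma), with 7.75, 7.72, 7.86 and 0.06 on the probiotic arrays. RPL5 had 2 tested probes, both called lower, but A_73_P439356 was not well above background in either group and gives no fold. Its other probe, A_73_P332556 in row 189, differed by -2.90 ± 0.95 (adjusted p = 0.013 by limma).

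Within the outer rows, where the spike-in was even on the probiotic arrays, the direction was nearly uniform. Values there are scaled to the 75th percentile of the outer rows. The lowest value well above background there was the floor of -3 on every probiotic array and on LPS arrays 1 to 3. Medians over all probes thus include floored values. In all, 4036 probes were tested, 29 of them members (24 genes). Of these 29, 22 were called higher in probiotic than in untreated blood, against 39.8% of all probes tested there, and 1 was called lower, against 20.1%. The median difference was 4.75 over the members and 0.77 over all probes. On the whole-array scale 13 of 13 members tested in rows 1 to 45 were called higher, against 76.8% of all probes there. In rows 488 to 532 it was 15 of 16, against 64.5%. The outer probe of RPL10 differed by 9.01 on that scale and by 6.56 here. Calls and sizes thus moved with the scaling. Another scaling used outer-row probes well above background on all LPS, probiotic and day 0 arrays except LPS array 4 and day 0 array 4. No untreated array had a part in choosing them, so this scaling is not neutral and can raise untreated values. With it the members' median was 3.09 and that of all probes -0.89, with 20 called higher and 3 lower. Without the 2 dim arrays, LPS array 4 and day 0 array 4, the members' counts were 22 and 1 again, against 42% and 20.6% of all probes. The spike-in was near background on the untreated arrays in the same rows, with a median of 17.2, and its part in these differences was not tested.

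RPL10 probe A_73_P511073 read 6.80, 6.86, 6.80 and 6.97 in the outer rows of the probiotic arrays, against 0.43, 0.32, 0.39 and 0.04 of the untreated arrays. It was at least 65.2-fold higher (adjusted p = 7.7e-12 by limma), with no untreated spot well above background. RPL3, which reaches to the catalytic centre, read 6.70, 6.71, 6.77 and 6.88, against 0.62, 1.36, 1.28 and 1.69, a difference of 5.53 ± 0.28. RPL4 differed by 5.67 ± 0.48, RPLP0 by 5.47 ± 0.58, RPL12 probe A_73_120986 by 5.76 ± 0.35 and RPL38 by 5.73. RPL29, a small basic protein, had the smallest difference among the 22, with 7.61, 7.63, 7.68 and 7.60 on the probiotic arrays against 4.89, 4.53, 4.25 and 3.78 on the untreated arrays (3.27 ± 0.44, adjusted p = 1.6e-05 by limma).
The untreated arrays were not low at every spot. RPL35A, mutated in some families with Diamond-Blackfan anaemia in humans, had a probe in row 502 (A_73_P074361) that read 7.31, 7.36, 7.31 and 7.20 on the probiotic arrays and 7.81, 7.39, 8.53 and 6.10 on the untreated arrays. The groups overlapped, and the difference was -0.16 ± 0.66 (adjusted p = 0.85 by limma). On the whole-array scale this probe was called higher. Its other outer probe, A_73_P041641 in row 516, read 6.31, 6.30, 6.32 and 6.49 on the probiotic arrays, against 0.30, 1.54, 0.74 and 2.04 on the untreated arrays, and was called higher (5.20 ± 0.34). RPL23, which faces the small subunit, read 1.88, 2.52 and 2.23 on 3 untreated arrays and 8.66 on the fourth, so its difference of 3.70 ± 1.24 rested on 3 of them. RPL36A and RPL37A, also called higher, had a high untreated array 4 as well. RPL36A read -3, -1.24, -2.27 and 6.98 on the untreated arrays, the last above its 4.79 to 4.90 on the probiotic arrays. RPL37A read -0.96, 1.17, 0.17 and 6.94 on the untreated arrays, against 6.99 to 7.18 on the probiotic arrays. RPL39, which lies in the exit tunnel, ran from 0.71 to 8.27 on the untreated arrays and was not called (0.68 ± 1.15).
The others not called were RPL32 (2.57 ± 1.53, with probiotic array 4 at -3), the second RPL12 probe A_73_P099021, and the paralogs RPL22L1 (0.87 ± 0.58) and RPL3L. All of these but RPL3L were called higher on the whole-array scale, as was RPL39. RPL3L, a paralog of RPL3 known from striated muscle, lay at or next to -3 on the probiotic arrays. It was still marked well above background on 4 probiotic and 3 LPS arrays, and on no untreated or day 0 array. The 1 probe called lower, RPL37 A_73_P393421, was not well above background on any untreated array, so it has no measured direction there. On the whole-array scale it was instead called higher, as were all 4 tested RPL37 probes, so its call turned with the scaling.

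**Figure D4:**
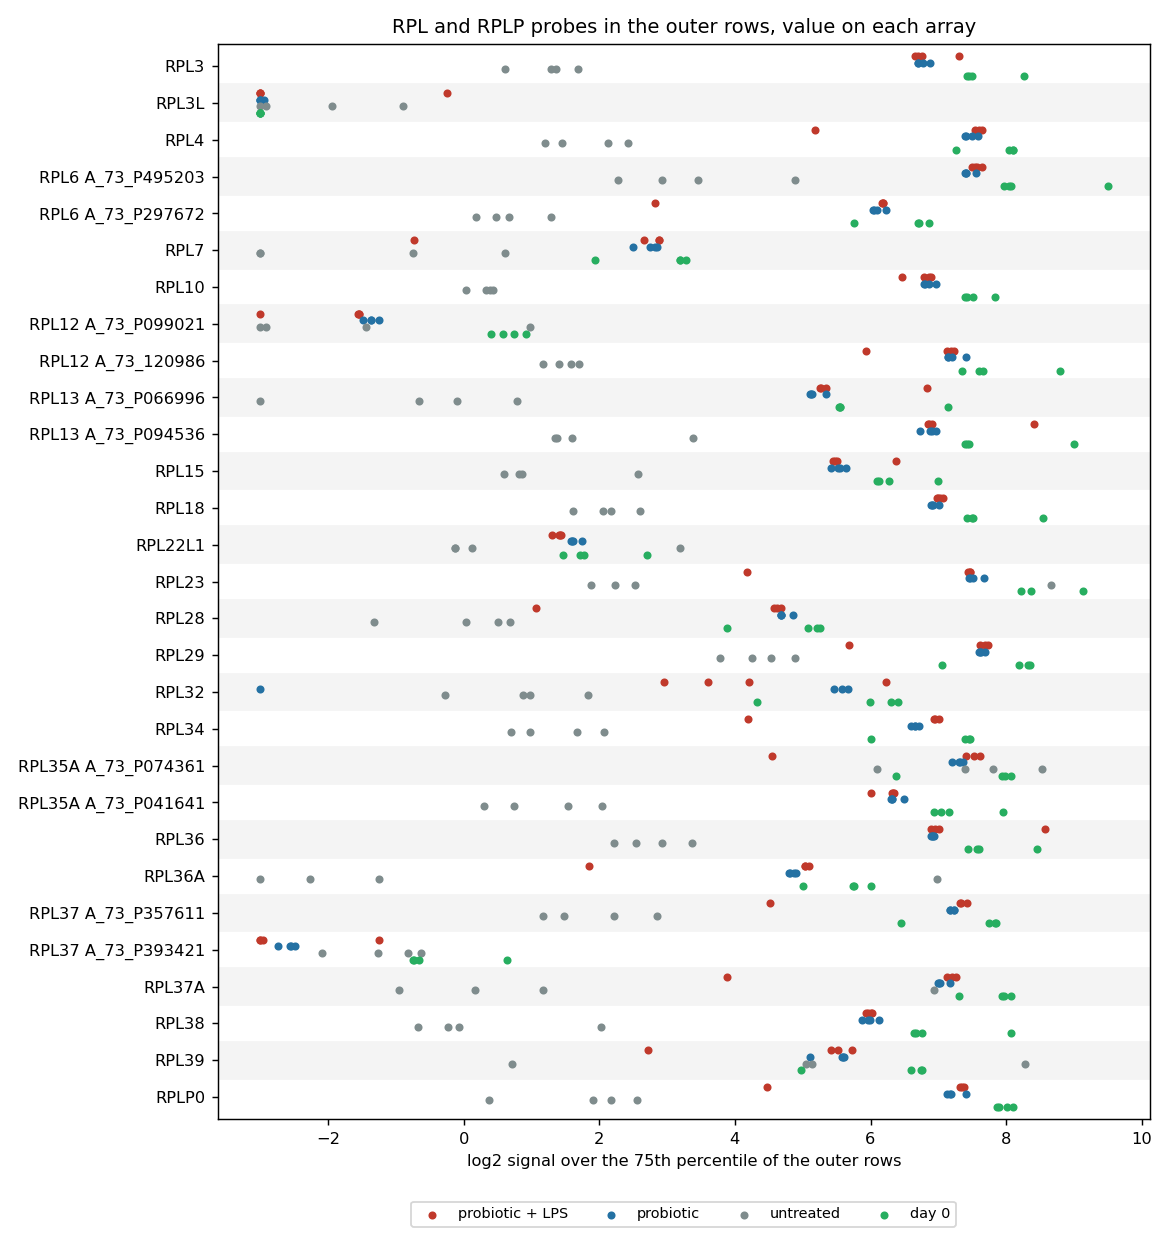
Log2 signal over the 75th percentile of the outer rows on each array for the 29 tested RPL and RPLP probes of those rows, in order of gene name; each point is 1 array and colours are groups. On most lines the untreated points lie below the others, as for RPL10, while for RPL35A A_73_P074361 they overlap them; levels are to be compared within a line, not between lines.

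The comparison of probiotic with day 0 blood asks what changed over the 60 days of the pack. Over the whole array, 10 of the 122 probes were called higher, against 6.08% of all probes, and 16 lower, against 3.52%; the median difference was -0.29 over the members and 0.61 over all probes. The counts depended on the processing: the software's processed signal gave 71 higher and 19 lower, and the authors' deposited averages, counted past a 2-fold difference with no test, gave 13 and 78. Shares of all probes under these settings are not given, so the change may hold for all probes alike. The summed neutrophil genes lay between 638 and 1220 on the probiotic arrays and between 240.4 and 1103 on the day 0 arrays, and the T cell sums overlapped too. All 10 probes called higher lay in rows 236 to 315, a run set by the first and last of these probes themselves. In those rows the spike-in was bright on probiotic arrays 1 to 3 and near background on day 0 arrays. Of all probes in those rows, 33.3% were called higher. The 16 called lower lay in rows 87 to 493, 9 of them in rows 336 to 407, where 6.58% of all probes were called lower.
Without probiotic array 1, 2 or 3 the count called higher was 6, and without any 1 of the other arrays of these groups it lay between 8 and 14. The genes called higher included RPL8, RPL23, RPL35A, RPL24, RPL27A, RPL11 and RPL19. RPL11 read 7.80, 7.89, 8.05 and 1.54 on the probiotic arrays, against 0.92, 1.82, -3 and 0.20 on the day 0 arrays (6.34 ± 1.55, adjusted p = 0.016 by limma), so that probiotic array 4 lay within the day 0 range. RPL23 probe A_73_P097536 in row 261 read 8.29, 8.38, 8.52 and 2.33 on the probiotic arrays, against 2.17, -3, -1.38 and -2.14 on the day 0 arrays, so that its value on probiotic array 4 lay next to the highest day 0 value. RPL24, one of the last proteins to join the subunit in yeast, differed by 6.82 ± 1.47 (adjusted p = 0.0082 by limma).
The probes called lower included 2 of RPLP2, by at least 429-fold on A_73_111645 and at least 161-fold on A_73_P203772, and RPLP1 A_73_P033516, by at least 243-fold. RPL23A, the docking site for factors at the tunnel exit, was lower by at least 348-fold on A_73_P204187 in row 114, with -3 on every probiotic array against 9.43, 9.08, 7.23 and 2.63 on the day 0 arrays. RPL14 was lower by at least 37.1-fold and RPL5 A_73_P439356 by at least 24.6-fold. RPL8 again had both calls: A_73_P362981 was higher by 8.67 ± 1.33 (adjusted p = 0.0016 by limma) and A_73_P045156 lower by at least 26.1-fold (adjusted p = 0.013 by limma). RPL17 was the other gene with both. Of the 30 overlapping pairs, 1 was called in opposite directions, 11 had 1 probe called and 18 had neither.

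The probiotic and day 0 arrays were close in the outer rows. None of the 29 probes was called higher, against 0.52% of all probes, and 1 was called lower, against 0.644%; at an unadjusted p under 0.05 there were 8 of 29, against 12% of all probes. The median difference was -0.77 over the members, 28 of which were below 0, and 0 over all probes. Probes at the floor in both groups count as 0 in the latter, so it is not a measured lack of shift. The size of this shift moved with the scaling: it was -0.63 without the 2 dim arrays, and -0.12 after quantile normalization of the outer rows, with 19 of 29 below 0.
The 1 probe called lower was RPL37 A_73_P393421, whose sequence is the reverse of the RPL37 strand that A_73_P357611 reads. It read -2.55, -2.49, -2.55 and -2.74 on the probiotic arrays, against -0.74, -0.75, -0.65 and 0.65 on the day 0 arrays. The groups did not overlap (-2.21 ± 0.45, adjusted p = 0.026 by limma), but the call was lost when any array of either group was left out and with the processed signal. The probe of the other strand, A_73_P357611, read 7.18, 7.18, 7.24 and 7.23 on the probiotic arrays, against 7.84, 7.85, 7.75 and 6.45 on the day 0 arrays (-0.27 ± 0.59).
Without the 2 dim arrays the counts called were again 0 and 1, against 1.98% and 3.32% of all probes. In that fit 4 of the 29 (13.8%) had an adjusted p under 0.05, near the 15% of all probes: this probe (-1.87), RPL10 (-0.58, adjusted p = 0.0021 by limma), RPL3 (-0.69, adjusted p = 0.033 by limma) and RPL29 (-0.66, adjusted p = 0.048 by limma). The last 3 did not reach a fold of 2. RPL10 read 6.80 to 6.97 in probiotic blood and 7.39 to 7.84 in day 0 blood, with no overlap over all 8 arrays. RPL29 read 7.60 to 7.68 in probiotic blood, and 8.35, 8.33, 8.19 and 7.05 in day 0 blood, where the last value is the dim array 4.

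LPS was added to the probiotic blood, so this comparison lies within 1 arm and 1 scan day. Over the whole array 7 of 122 probes were called higher in LPS than in probiotic blood, against 0.827% of all probes, and 1 was called lower, against 0.123%. The median difference was -0.61 over the members and -0.54 over all probes. The authors' deposited averages gave 33 higher and 69 lower past a 2-fold difference, with no test and no share of all probes given. The summed neutrophil genes lay between 85.6 and 614 on the LPS arrays, below the 638 to 1220 of the probiotic arrays. The sums of every other blood list, T cell genes included, overlapped. Detection went the other way, with 6 neutrophil genes well above background on all 4 LPS arrays and 3 on all 4 probiotic arrays. The part of these marker differences in the result was not tested. The 7 were RPL7A, RPLP1, RPL23A, RPL18, RPL5, RPL7 and RPL4, and 5 of them lay in rows 336 to 407, where 4.33% of all probes were called higher. In the rest of the array RPLP1 and RPL23A were each called on a probe at or next to -3 on the probiotic arrays.
RPL7A, on A_73_100141 in row 343, read 6.79, 7.50, 9.53 and 5.50 with LPS, against -2.79, -2.61, -2.64 and -2.0 without it. The groups did not overlap, and the probe was at least 411-fold higher (adjusted p = 3.7e-06 by limma). RPL18 probe A_73_115443 in row 338 read 6.82, 9.14, 9.89 and 6.22 with LPS, against -0.50, -0.83, -1.51 and 0.80 without (8.53 ± 0.76, adjusted p = 1.5e-05 by limma). RPL5 A_73_P439356 was at least 138-fold higher, RPL7 A_73_P080486 differed by 7.55 ± 0.64, and RPL4 A_73_P093281 was at least 33.1-fold higher. The spike-in spot nearest these probes, in row 329, read 15947, 46742, 112935 and 113.6 on the LPS arrays. On the probiotic arrays it read 172, 118, 105 and 7932. In rows 336 to 407 the spike-in median was 209 on the LPS arrays and 79.2 on the probiotic arrays. The part of these spike-in differences in the calls was not tested.
Probes of some of the same genes outside that band gave other values, and RPL7A had no other tested probe. RPL18 A_73_P039246 in row 519 differed by -0.52, RPL4 A_73_P035306 in row 16 by -1.08, RPL7 A_73_P262791 in row 478 by -0.56 and RPLP1 A_73_P462036 in row 325 by -0.60, and none of these was called. The 1 probe called lower was RPL24 A_73_P498818 in row 236, with -1.80, -1.80, -2.93 and 0.65 with LPS against 6.59, 6.68, 6.82 and 4.84 without (-7.70 ± 1.47, adjusted p = 0.013 by limma). That call was lost without probiotic array 2 or 3 or LPS array 3.

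Between LPS and probiotic blood no member of the outer rows was called in either direction, nor any of the 4036 probes (0% each way), and 0 of 29 members passed an unadjusted p under 0.05 in limma, against 0.917% of all probes. The median difference was -0.35 with all arrays and 0.05 without the 2 dim arrays. No member was called without them either, against 0.0496% of all probes called higher and 0% lower. In that fit 26 of the 29 probes differed by less than 0.25 (log2), within a range of -0.41 to 1.03. RPL36, for example, read 7.01, 6.90 and 6.95 on LPS arrays 1 to 3 and 8.57 on array 4, against 6.91, 6.89, 6.94 and 6.92 on the probiotic arrays. RPL29 read 7.73, 7.61 and 7.69 on LPS arrays 1 to 3 and 5.68 on array 4, against 7.60 to 7.68 on the probiotic arrays. The dim array 4 thus lay above the others for some probes and below them for others.

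Untreated blood was compared with day 0 blood to see what changed over the same days without the pack. Of 122 probes 2 were called higher in untreated blood, against 14.7% of all probes, and 78 lower, against 44.6%. The median was -4.78 over the members and -1.72 over all probes. The processed signal gave 2 higher and 14 lower, scaling on probes above background on all arrays gave 15 and 60, and the authors' deposited averages gave 20 and 66 past a 2-fold difference. Shares of all probes under these settings are not given. The summed T cell genes lay between 13.6 and 30.5 on the untreated arrays and between 80.5 and 271 on the day 0 arrays, which did not overlap. The sums of the neutrophil, monocyte, B cell, killer cell and platelet lists did not overlap either, and all were lower on the untreated arrays. Those of the erythroid list and of PTPRC overlapped. The part of these marker differences in the result was not tested. By gene, 38 had a probe called lower. The 2 called higher were RPL31 A_73_P394421 in row 207 (2.00) and RPL8 A_73_P362981 in row 315 (3.41 ± 1.24, adjusted p = 0.027 by limma), and both genes also had a probe called lower. The count called higher was 0 without day 0 array 2, and 1 without day 0 array 3 or untreated array 4. Genes with no call included RPL11, RPL14, RPL19, RPL24, RPL27A, RPL3L and RPLP2. RPL30 (at least 81.8-fold), RPL10 (at least 482-fold), RPL31 (-9.11 ± 1.29), RPL9 (at least 151-fold) and RPL38 (-8.72 ± 0.58) had the largest differences when each gene was taken by its brightest called probe. RPL35, which lies at the tunnel exit, was called lower by at least 3.39-fold (adjusted p = 0.0070 by limma), with no untreated array well above background.
In the outer rows 0 of 29 were called higher, against 18.6%, and 24 were called lower, against 36.7% (limma, with 24 at an unadjusted p under 0.05 in either direction, against 61.1% of all probes). The median was -5.51 over the members and -0.55 over all probes. Without the 2 dim arrays the counts were again 0 and 24, against 19.8% and 39.2%. RPL10 was lower by at least 105-fold, RPL13 A_73_P066996 by at least 34.6-fold, RPL28 by at least 16.3-fold and RPL7 by at least 4.20-fold. RPL35A A_73_P074361 differed by -0.14 ± 0.66 and was not called. This comparison shares the untreated arrays with that of probiotic with untreated blood and the day 0 arrays with that of probiotic with day 0 blood, so they are not separate evidence.

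Other genes of translation, on lists chosen with earlier results of these data known, were counted in the same fits. Of 77 tested probes of small-subunit proteins (RPS genes), 49 were called higher and 10 lower in probiotic than in untreated blood, against 54.1% and 14.5% of all probes, and the median was 4.18, against 2.46. In the outer rows 12 of 15 were called higher and 0 lower, against 39.8% and 20.1% of all probes. There 0 of 15 were called either way between probiotic and day 0 blood, against 0.52% higher and 0.644% lower of all probes. Between LPS and probiotic blood it was also 0 of 15, against 0% each way. In untreated against day 0 blood 13 were called lower, against 36.7% of all probes. Mitochondrial large-subunit genes (MRPL) gave 35 higher and 5 lower of 54 between probiotic and untreated blood, and 13 higher and 0 lower of 18 in the outer rows, with a median there of 2.19, against 0.77 over all probes. Elongation and initiation factors gave 24 higher and 4 lower of 33, and 8 of 8 higher in the outer rows. Genes of ribosome assembly gave 18 higher and 4 lower of 27, and 6 of 8 higher in the outer rows. For all of these lists the shares over all probes were 54.1% higher and 14.5% lower on the whole array. In the outer rows they were 39.8% and 20.1%.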

How the data were processed

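For each array the authors deposited the output of the scanner software (Feature Extraction 10.10.1.1, per the file headers), which holds each spot's background-subtracted signal as an intensity with no normalization between arrays; they also deposited a table of normalized averages per group, on a log2 scale per the labels and values, used for gene symbols and as an alternative. Here control spots and outlier spots were left out, spots of a probe were averaged, the signal was divided by the array's 75th percentile, floored at 0.125, and taken to log2. Probes well above background on all 4 arrays of at least 1 group were fitted with limma 3.58.1 (R 4.3.3) with 4 groups, and p-values were adjusted by Benjamini-Hochberg. The script was tested on simulated data. No spot was saturated, 8.26% to 42.1% of spots per array were well above background, and 4 arrays per group limit the precision. Day 0 arrays 2 to 4 and LPS array 4 had been detrended by the software in its processed signal, which was used only as an alternative. The members and lists were chosen with earlier results of these data known. The genes named are the 10 with the largest called difference per comparison on their brightest called probe, a fixed set of ribosomal proteins with roles outside the ribosome and paralogs, and genes with opposite calls or no tested probe. The fit of the outer rows was added after seeing the data.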

Additional observations from a re-analysis of the deposited data

Results flagged for a closer look

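In the outer rows each probe's 4 arrays of a group were checked for an array that stood apart (gap over range above Dixon's critical value for 4 values). An array stood apart in 53 of the 120 groups that had 4 values and a spread, where chance gives about 1 in 20. LPS array 4 stood apart on 24 probes and day 0 array 4 on 17, the 2 arrays on which the spike-in was dim in the same rows; a part of that dimness in these values was not tested. Probiotic array 4 stood apart on 5 probes, untreated arrays 3 and 4 on 2 each, and untreated array 2, probiotic array 1 and day 0 array 3 on 1 each. Among single values, RPL32 lay at -3 on probiotic array 4 and between 5.47 and 5.66 on the others, and RPL23 at 8.66 on untreated array 4 and between 1.88 and 2.52 on the others.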

How the results depend on the processing

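Counts are given as probes called higher and lower of the large-subunit genes, in the order probiotic against untreated, probiotic against day 0, LPS against probiotic, and untreated against day 0. Shares of all probes called are given above for the counts as reported and, in the outer rows, without the 2 dim arrays. They are not given for the other settings, so a change in a count may hold for all probes alike. As reported they were 82 and 18, 10 and 16, 7 and 1, and 2 and 78. The processed signal gave 64 and 13, 71 and 19, 7 and 1, and 2 and 14. Median scaling gave 67 and 17, 11 and 11, 6 and 0, and 7 and 64. Scaling on probes above background on all arrays gave 57 and 26, 11 and 16, 8 and 1, and 15 and 60. Quantile normalization gave 72 and 20, 10 and 14, 6 and 0, and 6 and 69, and with normexp 71 and 15, 7 and 12, 6 and 0, and 5 and 66. No filter gave 72 and 26, 10 and 19, 7 and 0, and 5 and 79. Keeping only probes above background on all 16 arrays gave 22 and 1, 0 and 1, 0 and 0, and 0 and 23, where fewer probes were tested. Fitting 2 groups alone gave 73 and 23, 8 and 18, 8 and 1, and 6 and 71. With 1 probe per gene there were 39 and 4, 6 and 4, 2 and 1, and 0 and 36. The authors' deposited averages, counted past a fold of 2 with no test, gave 15 and 23, 13 and 78, 33 and 69, and 20 and 66. In them 6 named differences between probiotic and day 0 blood turned direction: RPLP2 to 0.48, RPL23 to -0.41, RPL35A to -1.40, RPL14 to 2.50, RPL27A to -1.18 and RPL11 to -1.30. The causes were not tested. Leaving out LPS array 4, day 0 array 4 and probiotic array 4 together, chosen after seeing the data, gave 83 and 19, 14 and 25, 6 and 1, and 10 and 84. Probiotic array 4 was not dim in the outer rows, where its spike-in median was 163033. Leaving out 1 array at a time gave 72 to 79 and 17 to 18, 6 to 14 and 12 to 18, 6 to 10 and 0 to 1, and 0 to 3 and 73 to 81. Of 792 recomputed values of 38 named probes, 740 kept direction and side of the threshold, 46 lost the threshold and 6 turned.

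In the outer rows, counts as reported were 22 and 1, 0 and 1, 0 and 0, and 0 and 24. Scaling on 2813 bright probes, chosen without the untreated arrays and the 2 dim arrays, gave 20 and 3, 0 and 1, 0 and 0, and 2 and 22. With the 2 dim arrays left out of the fit it gave 20 and 3, 0 and 1, 0 and 0, and 3 and 20. The processed signal gave 22 and 2, 0 and 0, 0 and 0, and 1 and 23. Leaving out 1 array gave 20 to 24 and 1, 0 and 0, 0 and 0, and 0 and 24 to 25.

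With the replicate number as a block, counts were 82 and 18, 10 and 16, 7 and 1, and 4 and 79, and in the outer rows 22 and 1, 0 and 1, 0 and 0, and 0 and 24. The numbers do not pair the arrays: over 24 same-numbered pairs the correlation of deviations ran from -0.24 to 0.58, and 6 were over 0.1. With 1 pool and 1 slide per group, 4 repeat arrays limit what any count can show.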
